A study of Rattus norvegicus with 6 samples.

Results

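The genes described here are the subunits of potassium, sodium and calcium channels, taken as every gene symbol of the deposited tables that begins with Kcn, with Scn and a digit, or with Cacn. This rule used no measured value and gave 134 of 29468 symbols, 94 of them potassium, 14 sodium and 26 calcium channel genes. RNA was sequenced from 3 preparations of Schwann cell precursors (SCPs) and 3 preparations of repair Schwann cells (RSCs). The SCPs came from sciatic nerves and brachial plexus of LEWIS rat embryos at embryonic day 14, with no treatment. The RSCs came from the distal stumps of sciatic nerves of 10-week-old LEWIS rats, cut 1 week before. The labels give the genotype as wild type, while the study's methods describe grafted cells of the same kinds from transgenic LEWIS rats that express a red fluorescent protein, and do not say which animals gave the RNA. Both were enzymatically dissociated cell populations rather than sorted cells, with a short plating step on uncoated plastic meant to take out macrophages and fibroblasts, and the groups differ in age, tissue, dissociation and injury together, so that the parts of these in any difference cannot be told apart. In such bulk RNA, fewer cells of a type and less RNA per cell cannot be told apart either. How many embryos or adults were pooled in a preparation, or whether preparations shared animals, is not stated in the sources used here, so the p-values measure the spread between these samples.

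Potassium channels let potassium leave or enter the cell and set its resting potential, and they are sorted into voltage-gated, inward rectifier, tandem-pore leak and calcium- or sodium-activated classes, with auxiliary subunits that alter gating or trafficking. Voltage-gated sodium channels have a large pore-forming alpha subunit, which drives the upstroke of the action potential in neurons and muscle, and small beta subunits, which alter gating and are also immunoglobulin-type adhesion proteins. Voltage-gated calcium channels have a pore-forming alpha1 subunit with beta and alpha2delta subunits, whereas most gamma subunits outside skeletal muscle are known as partners of AMPA-type glutamate receptors. Schwann cells are not regarded as electrically excitable cells, although cultured and injured Schwann cells are known to carry voltage-gated potassium and sodium currents.

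Levels are given in FPKM, fragments scaled to transcript length and to the mapped fragments of the sample, summed over the named transcripts of a gene, so that levels can be compared between genes per length. Log2 fold changes are RSC minus SCP on log2(FPKM + 1), a scale that compresses the change of low genes, and SE is their standard error. Genes were compared with limma, "called" means an unadjusted p under 0.01, and adjusted p-values were computed by the Benjamini-Hochberg method over all 13003 genes that averaged 1 FPKM or more. The steps between low values put 1 fragment on 1 kb of transcript at 0.162 to 0.210 FPKM, so counting error is large for the many members below 1 FPKM. A value of 0 can be a failed estimate, since the neuregulin receptor gene Erbb3 of Schwann cells was listed at 0 in SCP 1 and RSC 2 but at 31.6 to 111 FPKM in the other samples, and such values are reported as listed at 0.

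The labels were checked against marker genes. Sox10, the transcription factor of the Schwann cell lineage, was at 175 to 181 FPKM in the SCPs and 143 to 149 in the RSCs. S100b, a marker of later Schwann cells, was at 3.21, 11.7 and 19.3 FPKM in the SCPs and at 924, 782 and 843 in the RSCs. Markers of other cells were present. The summed FPKM of 10 leukocyte markers was 14.0 to 42.6 in the SCPs and 2240 to 2696 in the RSCs, with 8 of 8 tested members higher in RSCs. That of 7 fibroblast markers was 847 to 1186 against 5402 to 8062, with 5 of 7 higher in RSCs and 1 higher in SCPs. Endothelial markers had 1 of 7 tested members higher in RSCs and markers of smooth muscle and pericytes 2 of 6. In the other direction, 9 listed skeletal muscle markers summed to 74.8 to 302 in the SCPs and 33.3 to 35.6 in the RSCs. Of the 8 tested, 6 were higher in SCPs, among them the muscle-defining factor Myod1, listed at 0 in the RSCs. The 1 higher in RSCs was Des, which is also on the smooth muscle and pericyte list. At 23.0 to 28.0 FPKM it made up most of the RSC sum. The 5 erythroid markers summed to 16680 to 74637 in the SCPs and 0 to 1.48 in the RSCs. The 13 neuronal markers summed to 38.9 to 67.9 in the SCPs and 24.8 to 35.6 in the RSCs, mostly from Tubb3 and Nefm, and Elavl4 was listed at 0 in all 3 RSC samples. The part of these cells in the differences below was not tested.

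Most members were low. Of the 134, 14 were listed at 0 in every sample, 76 did not exceed 1 FPKM in any sample, 49 were above 0 in all 6 samples, and 292 of the 804 values were 0. The 36 members that reached the minimum mean were tested, 26 potassium, 3 sodium and 7 calcium channel genes. A further 84 were above 0 but below it, with means up to 0.997 FPKM. Of the 36, 17 were called (40.5% of all tested genes were called), 9 higher in RSCs (background 18.1%) and 8 higher in SCPs (background 22.4%). Of these, 3 were over 4-fold higher in RSCs (background 7.81%) and 5 over 4-fold higher in SCPs (background 3.78%). The groups did not overlap in 21 of the 36 (background 58.6%) and in all 17 called, whose adjusted p reached at most 0.022. The called share of 47.2% lay near that of all genes, and members that pass the minimum through their high group alone were bound to differ. The median log2 fold change was 0.09 over the 36 members and -0.17 over all tested genes, the latter moving to 0.0053 after median-of-ratios scaling, so that fold changes stand about 0.17 higher relative to the median gene.

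**Figure D1:**
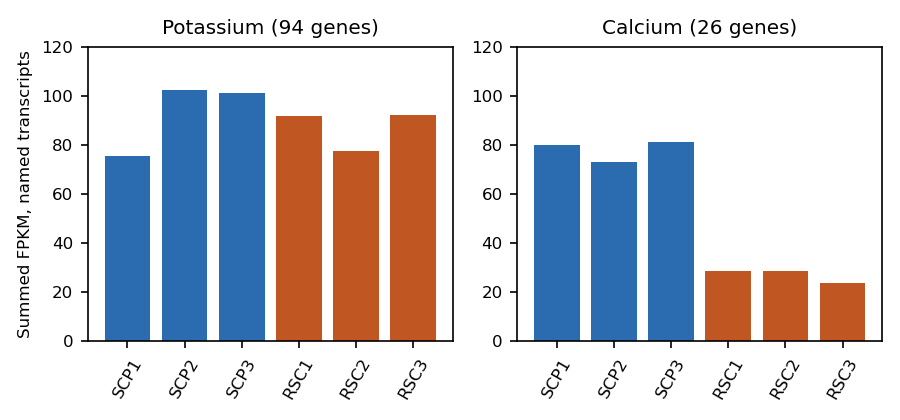
Summed FPKM of the named transcripts of the potassium and the calcium channel genes (y axis, the same scale in both panels) in each of the 6 samples (x axis), with 1 bar per sample. The calcium channel sum is 73.1 to 81.5 FPKM in the SCPs, mostly from Cacna1g, Cacna1h and Cacng7, and 23.8 to 28.6 in the RSCs. The potassium channel sums of the groups overlap.

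The summed level of the calcium channel genes was higher in the SCPs, as the bars of summed FPKM by sample show. The 26 genes summed to 80.0, 73.1 and 81.5 FPKM in SCP 1 to 3 and to 28.6, 28.5 and 23.8 in RSC 1 to 3, without overlap. Most of the SCP sum came from Cacna1g, Cacna1h and Cacng7, which are described below. By class, the alpha1, alpha2delta and gamma sums were higher in each SCP sample. The beta subunit sums overlapped, at 13.1, 18.2 and 19.2 FPKM in the SCPs and 20.2, 21.0 and 15.0 in the RSCs. For the 94 potassium channel genes the sums overlapped, at 75.4, 102.5 and 101.4 in the SCPs and 91.7, 77.7 and 92.4 in the RSCs.

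Of the sodium channel beta subunit genes, the beta3 gene Scn3b (chromosome 8 from 44136414 to 44159011 of rn6) was at 0.28, 0.61 and 0.54 FPKM in the SCPs and at 25.9, 41.4 and 33.5 in the RSCs. The groups stood apart, with a log2 fold change of 4.53 (SE 0.22, adjusted p = 5.5e-05). Scn4b, the beta4 gene, was too low to be tested, at 0.21, 0.36 and 0.31 FPKM in the SCPs and listed at 0 in the RSCs. Scn2b, the beta2 gene, was at 1.25, 0 and 0 FPKM in the SCPs and 1.10, 0 and 1.06 in the RSCs, with overlapping groups, and is taken up again among the genes with unnamed transcripts.

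Among the alpha subunit genes only Scn7a reached the minimum. It encodes Nax, a sodium channel relative that is known as a sensor of extracellular sodium in glia rather than a voltage-gated channel. Scn7a (chromosome 3 from 52775779 to 52877319) was at 0.27, 0.13 and 0.14 FPKM in the SCPs and at 7.59, 7.81 and 8.98 in the RSCs. The log2 fold change was 2.95 (SE 0.19, adjusted p = 0.00013), with no overlap. It made up most of the summed alpha subunit level of the RSCs, 9.01 to 10.1 FPKM, and most of its FPKM in the RSCs lay in XM_006234296.2, at 7.59, 5.28 and 8.98, a transcript listed at 0 in the SCPs.

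The alpha subunit genes known from neurons stayed low in their named transcripts. Scn8a, the main channel of mature nodes of Ranvier, was at 0.86, 0.41 and 1.14 FPKM in the SCPs and 0.27, 0.27 and 0.16 in the RSCs, without overlap. Scn1a, Scn2a1, Scn3a and Scn9a ranged from 0 to 0.899 FPKM over the 6 samples, with overlapping groups. With the unnamed transcripts described below, each SCP value of Scn1a, Scn2a1 and Scn9a was above each RSC value, whereas Scn3a still overlapped. The gap was small in Scn2a1, with SCP 3 at 0.531 FPKM and RSC 1 at 0.525. All of these values stayed below 1 FPKM, too low to be tested. The sensory neuron channels were lower still, with Scn10a at 0.08 FPKM in SCP 1 and listed at 0 elsewhere, and Scn11a listed at 0 in all samples. Scn4a of skeletal muscle ranged from 0.15 to 0.42 FPKM.

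**Figure D2:**
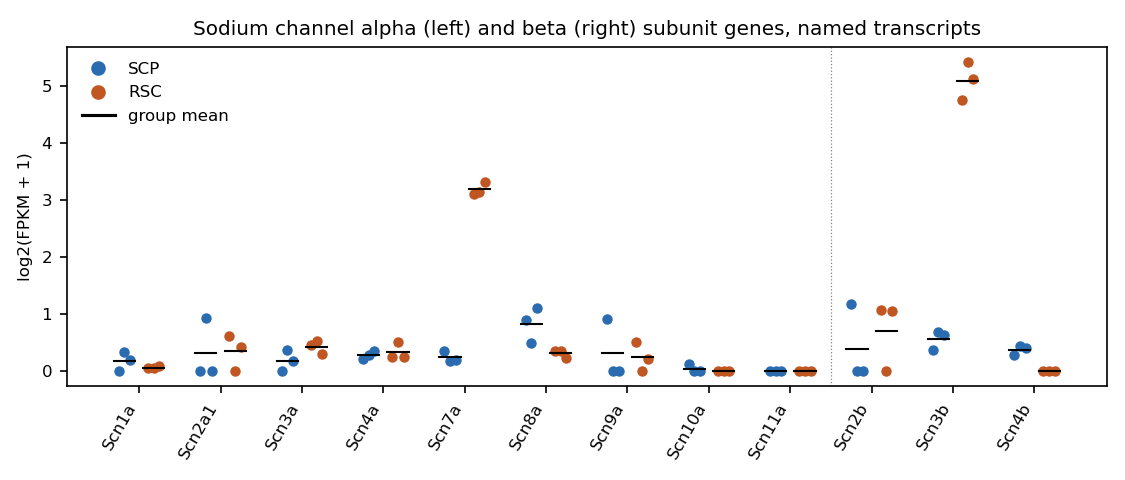
Levels of 9 sodium channel alpha subunit genes (left of the dotted line) and 3 beta subunit genes (right) as log2(FPKM + 1) of the named transcripts (y axis), with 1 point per sample and a bar at the group mean. Scn3b and Scn7a stand far above the SCPs in each RSC sample, and the other genes shown reach at most 1.10 FPKM in the RSCs.

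The RefSeq promoter table (build GRCr8, 250 bases before to 50 after the start of transcription) held 97 windows for 88 of the members. Of the 8 members over 4-fold apart it held Scn7a, Kcnk5 and Kcne3, which are printed because they stand on opposite sides of the comparison. The gene reads from left to right, and capitals mark the GC box GGGCGG on either strand.
Scn7a, chr3:71846235-71846534, minus strand: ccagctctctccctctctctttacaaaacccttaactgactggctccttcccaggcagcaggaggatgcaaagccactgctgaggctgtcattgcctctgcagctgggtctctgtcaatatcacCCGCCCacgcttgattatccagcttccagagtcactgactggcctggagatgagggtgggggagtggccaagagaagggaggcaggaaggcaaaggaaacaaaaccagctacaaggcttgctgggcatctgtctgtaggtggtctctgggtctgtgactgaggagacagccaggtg
Kcnk5, chr15:4171375-4171674, plus strand: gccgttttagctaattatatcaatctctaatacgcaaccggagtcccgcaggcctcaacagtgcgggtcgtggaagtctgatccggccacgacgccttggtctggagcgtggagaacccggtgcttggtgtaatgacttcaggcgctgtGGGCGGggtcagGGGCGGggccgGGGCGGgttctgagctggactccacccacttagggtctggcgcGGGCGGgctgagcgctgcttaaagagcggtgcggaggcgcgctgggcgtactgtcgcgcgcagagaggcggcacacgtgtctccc
Kcne3, chr1:163935785-163936084, plus strand: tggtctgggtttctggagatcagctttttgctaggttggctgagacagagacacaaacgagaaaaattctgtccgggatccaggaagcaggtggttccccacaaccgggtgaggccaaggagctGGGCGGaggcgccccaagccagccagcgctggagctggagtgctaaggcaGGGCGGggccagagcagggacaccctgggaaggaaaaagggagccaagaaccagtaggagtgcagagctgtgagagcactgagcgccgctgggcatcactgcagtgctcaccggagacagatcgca
The Scn7a window held 1 GC box, that of Kcnk5 held 4 and that of Kcne3 held 2. A GC box was present in 50 of the 97 member windows and in 33.1% of all 33469 windows. The AP-1 motif TGANTCA, searched on both strands and overlapping no GC box, was in none of these 3 windows, in 4 of the 97 and in 7.33% of all windows. A match of letters is not shown to be a binding site.

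The calcium channel genes that were called were all higher in SCPs, 4 of 7 tested, against 22.4% of all tested genes. The main pore-forming genes were those of the low-voltage-activated T-type channels, which open near the resting potential. Cacna1g (chromosome 10 from 82129071 to 82197863) was at 23.9, 11.2 and 16.6 FPKM in the SCPs and at 0.76, 0.69 and 0.34 in the RSCs, a log2 fold change of -3.46 (SE 0.31, adjusted p = 0.00038). Cacna1h (chromosome 10 from 14730932 to 14788617) was at 14.4, 23.5 and 25.2 FPKM in the SCPs and 2.33, 3.82 and 1.48 in the RSCs, a log2 fold change of -2.65 (SE 0.33, adjusted p = 0.0013). In both genes every SCP value was above every RSC value, and together they held most of the summed alpha1 level of the SCPs, 38.9 to 45.3 FPKM over 10 genes. Cacna1i, the remaining T-type gene, was not tested, at 0.12 to 0.26 FPKM in the SCPs and 0.06 to 0.10 in the RSCs.

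The high-voltage-activated alpha1 genes were low in both groups by their named transcripts. Cacna1b, the N-type channel of nerve endings, was at 0.27, 0.65 and 0.93 FPKM in the SCPs and 1.78, 0.27 and 2.17 in the RSCs, with an adjusted p of 0.38 from limma. The P/Q-type gene Cacna1a was at 1.48, 0.78 and 0.99 FPKM in the SCPs and 0.58, 0 and 0.97 in the RSCs, and the L-type gene Cacna1c at 0.98, 1.12 and 0.99 and at 0.35, 0.71 and 0.99. In Cacna1a the groups overlapped only through RSC 3, and in Cacna1c through the RSC 3 value between SCP 1 and SCP 3.

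Cacng7, which encodes a gamma subunit known as an AMPA receptor partner, was at 16.5, 7.79 and 8.85 FPKM in the SCPs and listed at 0 in all 3 RSC samples (limma adjusted p = 0.00037). It lies on chromosome 1 from 64374552 to 64405365. Its neighbour Cacng8 (from 64330106 to 64350338) was at 4.46, 0 and 1.09 FPKM in the SCPs and listed at 0 in the RSCs, under the minimum for the test. Cacng1, the gamma subunit of the skeletal muscle channel, and the muscle alpha1 gene Cacna1s were lower, at 0 to 1.17 and 0.12 to 0.43 FPKM in the SCPs, with Cacng1 listed at 0 in the RSCs. Both were highest in SCP 3, where the sum of the muscle markers was highest too, although Ckm and Ttn were highest in SCP 2 among the SCPs. The part of muscle cells in these values was not tested.

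Cacna2d2, an alpha2delta subunit gene, was at 1.18, 4.67 and 3.75 FPKM in the SCPs and listed at 0 in the RSCs (limma adjusted p = 0.0096). With the unnamed transcripts described below it was at 2.61, 3.04 and 1.29 in the RSCs, so the groups overlapped and the call was lost (adjusted p = 0.27). Without SCP 3 or without any 1 RSC sample its unadjusted p was 0.011 to 0.012. Cacna2d1, the target of gabapentin in sensory neurons, was at 0.87, 1.22 and 0 FPKM in the SCPs and 0.54, 0 and 0.72 in the RSCs. The beta subunit genes, whose products carry alpha1 subunits to the membrane, had 0 of 2 tested called by limma, and 0 at an unadjusted p under 0.05. Cacnb3 had the highest level of them, at 11.6, 15.3 and 15.1 FPKM in the SCPs and 18.6, 18.5 and 13.5 in the RSCs (log2 fold change 0.25, SE 0.18, adjusted p = 0.32), and Cacnb1 was at 0, 1.67 and 3.19 and at 1.33, 1.44 and 0.73, with overlapping groups in both. With unnamed transcripts Cacnb3 was called higher in RSCs, at 14.8, 15.3 and 15.1 and at 18.6, 18.5 and 19.8 FPKM (log2 fold change 0.31, SE 0.09, unadjusted p = 0.0098), and Cacnb1 was at 8.59, 7.82 and 8.65 and at 7.0, 5.39 and 5.52 (unadjusted p = 0.017).

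Of the 26 tested potassium channel genes 38.5% were called, close to the 40.5% of all tested genes, 6 higher in RSCs (background 18.1%) and 4 higher in SCPs (background 22.4%). Of the tandem-pore leak channels, Kcnk5 (chromosome 15 from 4554603 to 4597000), a channel known to respond to extracellular pH, was the highest in the SCPs. It was at 16.5, 17.6 and 18.7 FPKM in the SCPs and 1.47, 1.05 and 0.74 in the RSCs, a log2 fold change of -3.17 (SE 0.19, adjusted p = 0.00010). No SCP value came near an RSC value. Kcnk6 was at 0.46, 0.38 and 0.73 FPKM in the SCPs and 3.84, 5.94 and 5.44 in the RSCs (log2 fold change 1.99, SE 0.24, adjusted p = 0.0012). Kcnk13, known from microglia, was at 0.09, 0.35 and 0.10 FPKM in the SCPs, or 1 to 5 fragments, and 2.05, 1.87 and 2.97 in the RSCs (log2 fold change 1.47, SE 0.25, adjusted p = 0.0045). The class thus held called members in both directions. Kcnk1 was not tested, at 0.31 to 0.41 FPKM in the SCPs and 0.65 to 1.52 in the RSCs, with no overlap, and Kcnk2, the mechanosensitive TREK channel, was at 2.57, 2.14 and 1.34 and at 3.86, 1.04 and 0.91, with an adjusted p of 0.79 from limma.

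Of the 40 voltage-gated alpha genes 6 were tested and 3 called (background 40.5%). Kcna1, the delayed rectifier gene of the juxtaparanode, was at 0.11, 0.21 and 0.23 FPKM in the SCPs, 1 to 2 fragments, and 1.75, 2.46 and 2.35 in the RSCs, 13 to 20 fragments. Its log2 fold change was 1.42 (SE 0.22, adjusted p = 0.0034). Kcnd3, an A-type channel gene, was at 2.37, 2.01 and 2.0 FPKM in the SCPs and 3.80, 4.01 and 5.24 in the RSCs (log2 fold change 0.77, SE 0.20, adjusted p = 0.022), and leaving out any 1 sample moved its unadjusted p to 0.015 to 0.028. The call of Kcnd3 was also lost with no filter (unadjusted p = 0.016), quantile normalization (0.015), the replicate number as a block (0.035) and the highest transcript alone, where the log2 fold change was 0.21 (0.76). Kcnh2, the hERG channel of cardiac repolarization, moved the other way, from 3.85, 3.23 and 3.77 FPKM in the SCPs to 0.23, 0.13 and 0.33 in the RSCs (log2 fold change -1.91, SE 0.21, adjusted p = 0.00083). In all 3 genes the groups did not overlap (background 58.6%). Kcna2, the usual partner of Kcna1 in axons, overlapped between groups at 0 to 0.494 FPKM, and the M-channel genes Kcnq3 and Kcnq5 ranged from 0 to 0.489 in their named transcripts. Unnamed transcripts of Kcna2 were at 0.343 FPKM in RSC 2 and 0.474 in RSC 3. With them each RSC value of Kcna2 was above each SCP value, under the minimum for the test. Unnamed transcripts spanning Kcnq5 put it at 1.74, 2.01 and 1.18 FPKM in the SCPs and 0, 0.11 and 0 in the RSCs, without overlap and under the minimum for the test.

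Of the calcium-activated channels, Kcnn4, the intermediate-conductance channel known from T cells and macrophages, was at 3.63, 2.62 and 7.59 FPKM in the SCPs and 15.2, 10.2 and 18 in the RSCs. The lowest RSC value was above the highest SCP value, with a log2 fold change of 1.53 (SE 0.38, adjusted p = 0.019). With unnamed transcripts SCP 3 rose to 17.7 FPKM, above RSC 2 at 16.7, and the call was lost (unadjusted p = 0.020). Without SCP 1, SCP 2, RSC 1 or RSC 3 the unadjusted p was 0.022 to 0.030. Kcnn4 and Kcnk13 were higher in the group where the leukocyte markers were higher, and the part of leukocytes in them was not tested. The small-conductance genes were lower, with Kcnn3 at 1.04, 1.39 and 1.80 FPKM in the SCPs and 1.17, 0.25 and 1.05 in the RSCs, and Kcnn1 at 0 to 1.98 over the 6 samples. With unnamed transcripts each RSC value of Kcnn1 was above each SCP value, but it was not called.

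Inward rectifier genes, which clamp cells near the potassium equilibrium, had 15 members, of which 4 were tested and 0 called by limma, with 1 of the 4 at an unadjusted p under 0.05. That was Kcnj12, named after its values were seen, at 1.10, 0 and 0 FPKM in the SCPs and 2.38, 1.79 and 3.56 in the RSCs, with an unadjusted p of 0.0104. Kcnj2 was at 1.69, 3.35 and 5.08 FPKM in the SCPs and 3.82, 3.31 and 5.95 in the RSCs, and Kcnj8, known from pericytes, at 1.12, 6.64 and 6.18 and at 2.25, 6.08 and 5.57. The lowest value of Kcnj8 and Kcnj14 in the SCPs was that of SCP 1, where Kcnj14 was listed at 0 against 8.25 and 5.46 FPKM in the others. In the RSCs Kcnj14 was at 1.57, 1.43 and 2.39 FPKM, and without SCP 1 it was called higher in SCPs, with a log2 fold change of -1.48 (unadjusted p = 0.0043, limma). It was also called with its 0 left out (-1.48, unadjusted p = 0.0031) and with unnamed transcripts, which put SCP 1 at 4.32 FPKM (-1.30, unadjusted p = 0.0016). With unnamed transcripts Kcnj12 was called as well, higher in RSCs, at 2.16, 1.93 and 2.32 FPKM in the SCPs and 5.20, 4.15 and 5.97 in the RSCs (log2 fold change 0.95, unadjusted p = 0.00086), so that 2 of the 4 were called (background 57.3%). Kcnj10, the glial potassium buffering channel, was low, at 0.13, 0.26 and 0.15 FPKM in the SCPs and 0.85, 0 and 1.48 in the RSCs. An unnamed transcript spanning Kcnj10 was at 1.04 FPKM in RSC 2. With it each RSC value of Kcnj10 was above each SCP value, under the minimum for the test. Kcnj11, the pore of the ATP-sensitive channel, was named after its values were seen, at 1.90, 1.81 and 1.72 FPKM in the SCPs and 0.33, 0.13 and 0.08 in the RSCs, just under the minimum for the test.

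Auxiliary potassium channel genes were divided. Kcnmb4, a subunit of the large-conductance calcium-activated channel, was at 11.4, 12.6 and 11.9 FPKM in the SCPs and 5.11, 7.51 and 6.47 in the RSCs, a log2 fold change of -0.83 (SE 0.17, adjusted p = 0.0092). After median-of-ratios scaling its log2 fold change was -0.64 and its unadjusted p 0.0103, and without SCP 2, SCP 3 or RSC 3 the unadjusted p was 0.010 to 0.013. The pore gene of that channel, Kcnma1, was at only 0.23 to 0.46 FPKM in the SCPs and 0.04 to 0.08 in the RSCs. Kcne3, a single-span subunit, was at 3.11, 5.17 and 2.96 FPKM in the SCPs and 0.43, 0 and 0 in the RSCs (log2 fold change -2.04, SE 0.30, adjusted p = 0.0025). Kcnab2, a beta subunit of Kv channels, was at 1.30, 0 and 1.41 FPKM in the SCPs and 5.07, 4.89 and 5.07 in the RSCs (log2 fold change 1.76, SE 0.38, adjusted p = 0.012). With a pseudocount of 0.1 its unadjusted p was 0.034, and without any 1 RSC sample 0.014 to 0.015.

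**Figure D3:**
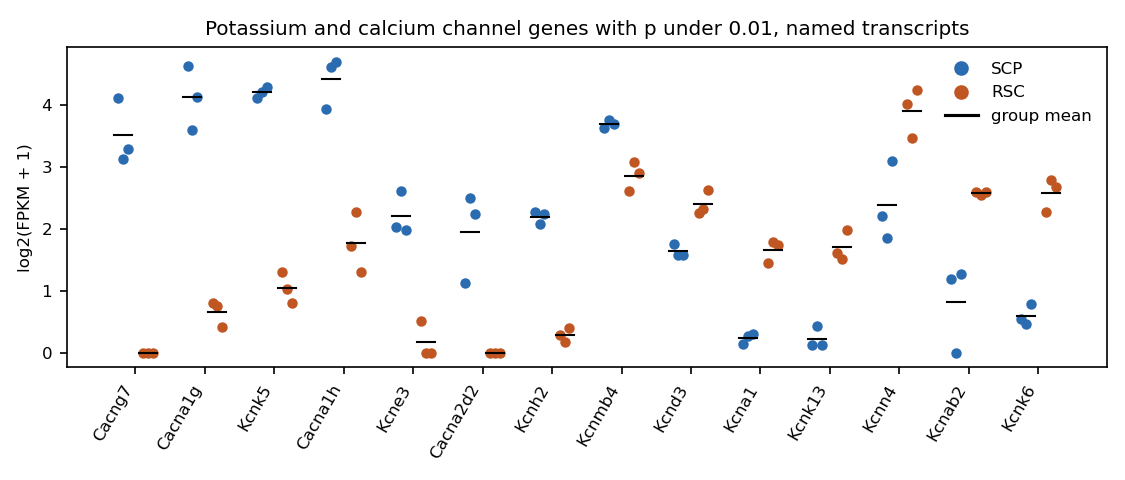
The 14 potassium and calcium channel genes with p under 0.01, ordered by log2 fold change, as log2(FPKM + 1) of the named transcripts (y axis) with 1 point per sample and a bar at the group mean. The SCP and RSC points of each gene do not overlap, with Cacng7 and Cacna2d2 at 0 in the RSCs, and the gap is narrowest in genes such as Kcnn4 and Kcnd3.

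A large part of the FPKM lay in transcripts without a gene name, which Cufflinks assembled in each sample separately. These held 26.1% to 31.9% of the FPKM in the SCPs and 18.6% to 23.4% in the RSCs. In 50 of the 134 members such a transcript lay at the same locus in at least 1 sample. When they were added to the gene they overlapped most, 49 members reached the minimum and 32 were called (background 57.3%), 17 higher in RSCs (background 23.2%) and 15 higher in SCPs (background 34.1%). Over 4-fold were 5 in RSCs (background 8.57%) and 9 in SCPs (background 4.58%), and the groups did not overlap in 38 of the 49 (background 72.4%). Of the 17 members called from named transcripts 15 were called again in the same direction, and Kcnn4 and Cacna2d2 were not. The other 17 were called only with the unnamed transcripts, 8 of them because they then reached the minimum. Members of this group that are outside the classes' leading genes were named after their values were seen.

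Kcng1, a silent modulatory subunit of Kv channels, changed most in this way. Its named transcripts were at 0.20, 0.32 and 0.29 FPKM in the SCPs and listed at 0 in the RSCs, whereas unnamed transcripts at its locus were at 15.3, 13 and 13.1 FPKM in RSC 1 to 3. They ran from 165018762 to 165039003 on chromosome 3 in RSC 1, where the named gene runs from 165020067 to 165039707. With them the log2 fold change was 3.54 (SE 0.14, adjusted p = 4.9e-06). Kcnt1, a sodium-activated channel, was likewise at 3.98, 3.83 and 3.27 FPKM in the RSCs with unnamed transcripts and at 0, 0.09 and 0 in the SCPs (log2 fold change 2.19, SE 0.16, adjusted p = 5.1e-05).

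Scn8a and Scn2b were higher in SCPs with unnamed transcripts, against the direction of Scn3b and Scn7a. Scn8a was then at 4.07, 3.49 and 3.78 FPKM in the SCPs and still at 0.27, 0.27 and 0.16 in the RSCs (log2 fold change -1.95, SE 0.15, adjusted p = 6.8e-05). Scn2b was at 4.93, 4.80 and 5.36 FPKM in the SCPs and 1.10, 1.40 and 1.06 in the RSCs (log2 fold change -1.47, SE 0.14, adjusted p = 0.00018). In 3 of the 4 samples where Scn2b had an unnamed transcript, its ends were those of the named gene on chromosome 8, 49419003 and 49431110. The SCPs, where both were higher, also had the higher levels of the neuronal genes Elavl4 and Stmn2, at 1.32 to 2.92 and 3.19 to 5.0 FPKM against 0 and 0 to 0.13 in the RSCs. These were the 2 of 7 tested neuronal markers called higher in SCPs by their named transcripts, while Tubb3, Nefm and Nefl were not called. Prph (log2 fold change -1.21, unadjusted p = 0.012) and Isl1 (-2.21, unadjusted p = 0.056) were lower in RSCs but not called by limma. Isl1 was listed at 0 in SCP 2 and in the RSCs. The part of neurons in these values was not tested. The RSC levels of Scn3b were 38.3, 52.5 and 39.4 FPKM with unnamed transcripts, and it had no unnamed transcript in the SCPs.

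Calcium channel genes also changed. Cacna1a, with the alternative, was at 2.05, 2.50 and 1.65 FPKM in the SCPs and 8.02, 5.23 and 5.77 in the RSCs (log2 fold change 1.25, SE 0.20, adjusted p = 0.0015), so that a P/Q-type gene with overlapping groups became one without. Cacna1b was at 1.06, 1.08 and 1.35 and at 2.72, 2.30 and 2.17 FPKM (log2 fold change 0.65, SE 0.16, adjusted p = 0.0097). The L-type genes Cacna1c and Cacna1d went the other way, with each SCP sample above each RSC sample. Of the 6 alpha1 genes then tested, 2 were called higher in RSCs (background 23.2%) and 3 higher in SCPs (background 34.1%). The groups did not overlap in any of the 6 (background 72.4%). Cacng4 reversed, since its named transcript was listed at 0 in the SCPs and at 1.32, 1.25 and 1.09 FPKM in the RSCs, and an unnamed transcript was at 9.78, 8.55 and 9.86 in the SCPs. The reversal rests on that transcript alone. It began at 95953442 to 95953520 on chromosome 10, before the named gene, which runs from 95954160 to 96015484. It ended at 96015484 or 96015485 and so spanned the named gene, but its assignment to Cacng4 is uncertain. Cacng8 was at 9.58, 4.95 and 5.68 FPKM in the SCPs and listed at 0 in the RSCs. The T-type genes kept their direction, with Cacna1g at 23.9, 33.6 and 30.2 FPKM against 3.27, 5.02 and 4.59 (log2 fold change -2.52, SE 0.19) and Cacna1h at 25.2, 23.5 and 25.2 against 3.95, 4.40 and 3.2 (log2 fold change -2.41, SE 0.13).

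**Figure D4:**
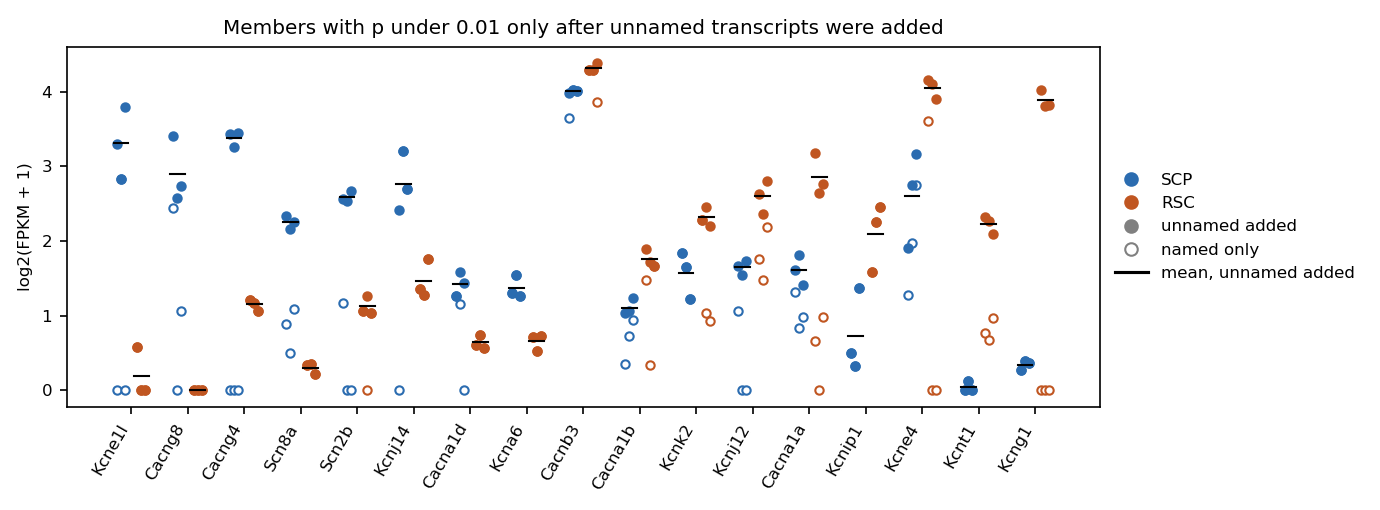
Levels as log2(FPKM + 1) (y axis) of the 17 members called only with unnamed transcripts added, with filled points for the named and unnamed transcripts together, open points for the named transcripts alone, 1 point per sample, and bars at the group means with unnamed transcripts. Filled points lie apart between SCPs and RSCs in each gene, while open points lie at 0 in single samples or whole groups, as in Kcng1 in the RSCs and Cacng4 in the SCPs.

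**Figure D5:**
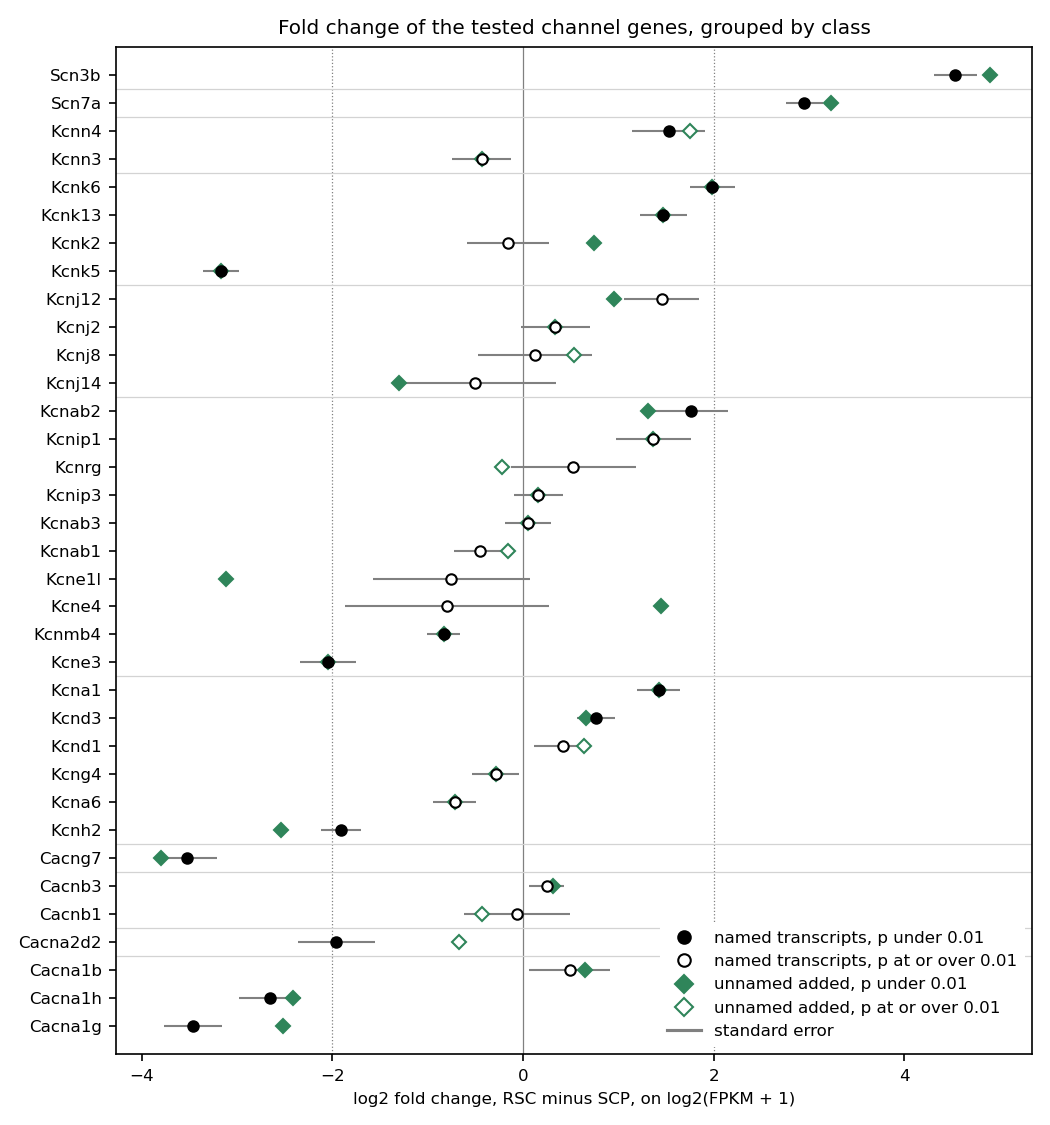
Log2 fold change, RSC minus SCP on log2(FPKM + 1) (x axis), of 35 tested members (y axis, grouped by class with grey lines between classes), with circles and SEs for named transcripts, diamonds with unnamed transcripts added, filled where p was under 0.01, and dotted lines at 2 in either direction. Scn3b and Scn7a lie right of 2, Cacng7, Cacna1g, Kcnk5, Cacna1h and Kcne3 lie left of -2 by the circles, and the diamond lies on the other side of 0 for Kcnk2, Kcne4 and Kcnrg.

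Kcnk2, Kcne4 and Kcnrg were on the other side of 0 with the unnamed transcripts, and Kcnk2 and Kcne4 were then called higher in RSCs, as the plot of fold changes by class shows. Kcne4 is the clearest case of single values at 0. Its named transcripts were at 11.2, 0 and 0 FPKM in RSC 1 to 3, and with unnamed transcripts at 16.8, 16.1 and 14.0. The SCP values were 1.42, 2.91 and 5.75 FPKM, and 2.74, 5.73 and 7.99 with unnamed transcripts, below each RSC value.

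Ion-handling genes outside the 3 families were compared for context, as 93 genes in 5 lists. Of these 62 were tested by their named transcripts, with 22 called higher in RSCs (background 18.1%) and 5 in SCPs (background 22.4%). The counts of these lists were not repeated with unnamed transcripts. Ion pumps and cation chloride cotransporters had 8 of 17 tested members higher in RSCs and 0 called higher in SCPs by limma, also 0 at an unadjusted p under 0.05. Among them Fxyd1, the phospholemman regulator of the sodium pump, was at 22.8 ± 7.62 FPKM in the SCPs and 439 ± 18.9 in the RSCs (SD, n = 3 each, log2 fold change 4.25), and the pump subunit gene Atp1b2 was at 2.57 ± 1.90 and 32.6 ± 3.79 (log2 fold change 3.42). Of 8 tested genes of calcium release and store-operated entry, 4 were called higher in RSCs and 0 in SCPs, also 0 at an unadjusted p under 0.05, among them the store sensor Stim1 at 3.21 ± 1.62 and 16.5 ± 3.08 FPKM (log2 fold change 2.11) and the pore gene Orai2 (log2 fold change 1.67). With unnamed transcripts Stim1 was at 11.8, 17.3 and 10.8 FPKM in the SCPs and 25.8, 20.0 and 23.8 in the RSCs, a smaller difference, and Orai2 at 1.29, 1.55 and 1.55 and at 8.20, 8.15 and 7.84. Other cation channels had 5 called higher in RSCs and 2 higher in SCPs of 15 tested, with the ATP receptor P2rx7 at a log2 fold change of 2.55 and the channel Trpv2 at 2.30. Chloride and anion channels had 4 and 1 of 11, with Clcn4 at 2.01, Ano10 at 1.76 and Ttyh3 at -1.46. Of 11 tested channel partners and anchors, Gem, an inhibitor of calcium channels, was called higher in RSCs at a log2 fold change of 2.75, and the sodium channel partners Fgf11 and Fgf12 higher in SCPs at -1.78 and -1.26. Unnamed transcripts moved some listed genes in either direction, as in 2 named after their values were seen. Clcn5, listed at 0 in the SCPs by name, was then at 18.9, 23.1 and 25.4 FPKM there and 2.86, 2.42 and 3.19 in the RSCs. Ank3, listed at 0 throughout by name, was then at 9.74, 9.36 and 7.10 in the SCPs and 38.1, 36.3 and 35.1 in the RSCs. P2rx7 is well known from macrophages, and it was higher in the group where the leukocyte markers were higher.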

How the data were processed

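The authors deposited 1 Cufflinks output for each of the 6 samples, with the FPKM and the coverage signal of each transcript on rn6. The submitters' processing notes name TopHat2 2.1.0, Cufflinks 2.2.1 and FastQC 0.11.2, and libraries were stranded mRNA with paired-end reads. Transcripts whose gene names had become dates, 77 per sample, were left out. FPKM of named transcripts were summed by symbol, and positions span all transcripts of a symbol. RSCs and SCPs were compared with limma 3.58.1 (R 4.3.3) on log2(FPKM + 1), two-sided, with a variance trend and without a replicate block, over 13003 genes averaging 1 FPKM or more. Thresholds were an unadjusted p below 0.01 and, for the larger changes, a log2 fold change beyond 2 (4-fold). The fit was tested on simulated data. Tables were handled with pandas 2.3.3.

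Depth was estimated from the steps of low FPKM in genes with a single transcript over 2 kb, of which 87.8% to 91.9% lay within 0.1 of a whole fragment. This gave about 5820000, 6180000 and 5540000 fragments in SCP 1 to 3 and 4770000, 5270000 and 4960000 in RSC 1 to 3. No count test was run, since fragments of genes with several transcripts were not whole.

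The members and gene lists were chosen with earlier results of these data known. Named genes are members past both thresholds, the 2 per class that changed most in either direction among those called, the 2 per class with the highest mean in each group, channels known from nerve, and the 2 per outside list that changed most in either direction. Cacna1i, Cacna1s, Cacng1, Kcnma1, Scn4a and Scn4b were added as relatives of these after their values were seen. Some genes that this rule names are left out of the text and plots and are not reported here, but stay in the counts. Settings changed separately were the pseudocount (0.1), the filter (removed, or raised to 5 FPKM), the scaling (quantile or median-of-ratios), the variance trend, a block on the replicate number, the transcript with the highest FPKM in place of the sum, the ratio of group means, the addition of unnamed transcripts to the gene they overlap most, the omission of zeros where the group otherwise reached 5 FPKM, and the omission of each sample. Adding unnamed transcripts without a filter was chosen after seeing the data.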

Additional observations from a re-analysis of the deposited data

How the results depend on the processing

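Of the 17 called members 12 kept their call and direction under each alternative that gave them a value, up to 17 per gene (among them Cacna1g, Cacna1h, Cacng7, Kcna1, Kcne3, Kcnh2, Kcnk13, Kcnk5, Kcnk6, Scn3b and Scn7a), and none of the 17 reversed. With the unnamed transcripts added the counts moved from 9 to 17 members higher in RSCs, 8 to 15 higher in SCPs, 3 to 5 over 4-fold higher in RSCs and 5 to 9 over 4-fold higher in SCPs. With a mean of at least 5 FPKM the first counts were 3 and 5, since fewer genes were tested, and with no filter 16 members were higher in SCPs. Members over 4-fold higher in RSCs numbered 6 with a pseudocount of 0.1, 5 with the highest transcript per gene and 7 by the ratio of group means. Leaving out each sample gave 6 to 9 members higher in RSCs, 6 to 9 higher in SCPs, 3 to 4 over 4-fold higher in RSCs and 4 to 6 over 4-fold higher in SCPs. With the replicate number as a block, 8 and 8 members were called, 3 and 5 over 4-fold, Kcnd3 being the call lost (unadjusted p = 0.035). Same-numbered samples correlated at 0.044, -0.0049 and 0.026 in their deviations, and differently numbered ones at -0.048 to 0.022. Values this near 0 cannot tell whether the numbers mark pairs. Among members that were not called, Cacnb1 (log2 fold change -0.06) was at 0.55 with a pseudocount of 0.1, 0.031 after median-of-ratios scaling, 0.12 by its highest transcript, -0.43 with unnamed transcripts and -0.64 to 0.39 with a sample left out. Kcnj14 (-0.50) was at 0.15 with a pseudocount of 0.1 and -1.48 to 0.12 with a sample left out, and was called at -1.30 with unnamed transcripts and -1.48 with zeros left out. Kcnj8 (0.13) was at -0.48 to 0.48 and Kcnk2 (-0.16) at -0.59 to 0.086 with a sample left out, and Kcnk2 at 0.75 with unnamed transcripts, with or without a filter. The cause was not tested. With 3 samples a group, members below about 1 FPKM rest on few fragments.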
